A study of Homo sapiens with 12 samples.

Results

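The genes described are 10 targets of the liver X receptors (LXRs) that serve cholesterol efflux and lipoprotein handling in macrophages: ABCA1, ABCG1, NR1H3, APOE, APOC1, APOC2, MYLIP, LPCAT3, PLTP and LPL. The members were all probe sets to which the platform's gene table gives exactly 1 of these symbols, which are 28 of 49395 probe sets on the array, for 10 of 18132 genes. Of the 28, 23 reached the signal needed for testing. Another 3 probe sets list APOC2 among several symbols and were not used. Messenger RNA was measured on 12 Affymetrix PrimeView Human arrays of THP-1, an established human monocytic leukaemia line that takes on macrophage features when given PMA, a phorbol ester. There are 4 groups of 3 arrays. In the temperature experiment, THP-1 cells differentiated with 100 ng/ml PMA for 48 hours were kept at the fever-like temperature of 40 °C, or at 37 °C. In the inhibitor experiment, the groups were cells labelled siThermomir, called thermomiR inhibitor here, and wild-type cells labelled control. Per the labels' protocols, cells of this kind were differentiated at 40 °C, nucleofected with a hairpin microRNA inhibitor and a plasmid for GFP, and the GFP-positive cells were collected 24 hours afterwards. Which microRNA was inhibited on these arrays, whether the controls received the control inhibitor, and at which of the harvest times of 2, 8 and 24 hours the 40 °C cells were taken is not stated.

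LXRs are nuclear receptors that bind oxysterols, oxidised forms of cholesterol, and switch on genes that move cholesterol out of a loaded macrophage. NR1H3 encodes LXR alpha, which works as a dimer with a retinoid X receptor (RXR) and, in human macrophages, also raises its own gene. ABCA1 and ABCG1 pump cholesterol to apolipoprotein A-I and to HDL. APOE, APOC1 and APOC2 lie in a cluster of apolipoprotein genes whose macrophage expression is driven by LXR through shared enhancers. MYLIP is a ubiquitin ligase that degrades the LDL receptor, LPCAT3 puts polyunsaturated chains into phospholipids, PLTP transfers phospholipids between lipoproteins, and LPL is the lipase that frees fatty acids from triglyceride, with APOC2 as its activator.

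LXR dimers bind repeats of the letters AGGTCA spaced by 4 bases, so the promoters were searched for them. RefSeq promoters of GRCh38.p14 matched 8 of the 10 genes, all but ABCG1 and LPL, with 14 promoters, and the 250 bases before each start site were read on both strands. The exact repeat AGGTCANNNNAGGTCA was in none of the 14 and in 0.0142% of 35116 promoters. The looser form AGGTNANNNNNGGTCA was written to fit the element already known in the ABCA1 promoter, so its presence there is no finding, and it was in 0.0797% of all promoters and in no other of the 14. The single AGGTCA, which the exact repeat contains, was in 1 promoter each of NR1H3 and APOC2 and in 12.1% of all. The NR1H3 promoter is 1 of 4 listed for that gene. These 3 promoters are shown because each holds such letters and belongs to a gene whose transcript was lower with the inhibitor. Capitals mark the looser repeat in ABCA1, which reads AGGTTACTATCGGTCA on the other strand and starts 69 bases before the start site, and AGGTCA in either orientation in NR1H3 and APOC2. A match of letters is a description and does not show that a receptor binds there.
ABCA1 promoter, chr9:104928156-104928405, minus strand: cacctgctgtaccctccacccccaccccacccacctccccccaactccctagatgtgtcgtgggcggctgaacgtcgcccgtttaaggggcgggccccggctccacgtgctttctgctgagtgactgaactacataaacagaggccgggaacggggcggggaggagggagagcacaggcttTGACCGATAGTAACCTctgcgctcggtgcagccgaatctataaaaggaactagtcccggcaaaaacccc
NR1H3 promoter, chr11:47248050-47248299, plus strand: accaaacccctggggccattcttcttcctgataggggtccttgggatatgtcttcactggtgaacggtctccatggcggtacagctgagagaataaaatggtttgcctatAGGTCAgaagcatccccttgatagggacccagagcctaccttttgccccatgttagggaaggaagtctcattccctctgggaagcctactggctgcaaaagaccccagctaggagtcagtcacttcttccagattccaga
APOC2 promoter, chr19:44945801-44946050, plus strand: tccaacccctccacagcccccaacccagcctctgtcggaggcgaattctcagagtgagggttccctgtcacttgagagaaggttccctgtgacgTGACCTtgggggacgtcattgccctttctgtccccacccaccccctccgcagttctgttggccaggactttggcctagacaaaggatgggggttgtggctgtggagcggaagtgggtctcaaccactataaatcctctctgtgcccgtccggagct

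Values are the deposited log2 expression values. They can be compared between arrays for 1 probe set, but not between probe sets. Array medians lay between 5.72 and 5.87, and arrays of 1 group correlated at r = 0.9939 to 0.9984 over all probe sets that are not controls. Whether replicates are separate cultures is not in the labels, so the spread behind each p-value is that of these arrays and may be technical. The number of arrays limits the precision. All 10 macrophage markers were above the testing signal. Of markers of other cell types, 2 of 6 hepatocyte genes (APOA1 and TTR, but not ALB or APOB), 3 of 4 adipocyte genes (ADIPOQ, PLIN1 and CIDEC, but not LEP) and 2 of 4 lymphocyte genes (CD3E and CD79A, but not CD3D or MS4A1) were above it. So were both erythroid genes measured (HBB and ALAS2) and 2 of 5 fibroblast genes (COL1A1 and COL1A2, but not COL3A1, DCN or LUM). This signal, log2 4.48, applies to the mean over the 12 arrays. Below it lay CD3E (4.42) and COL1A2 (4.43) at 40 °C, and PLIN1 (4.43) and COL1A2 (4.35) at 37 °C. In the inhibitor experiment these genes averaged 5.09 to 5.58. In these bulk samples, fewer cells expressing a gene and less RNA per cell cannot be told apart.

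The first comparison asked how fever-like temperature changes the transcripts of these genes. At 40 °C the receptor gene NR1H3, the apolipoprotein genes APOE and APOC2, the lipase gene LPL and the ligase gene MYLIP rose, LPCAT3 fell, and neither cholesterol pump rose. Counting 1 probe set per gene, the one with the highest mean over the 12 arrays, called representative below, 5 of 10 genes were called higher and 2 lower (limma, Benjamini-Hochberg adjusted p under 0.05 over all probe sets). Over all genes tested, 20.5% were called higher and 16.9% lower. The median log2 difference of the 10 genes was 0.06, against 0.013 over all genes. By probe set, 9 of 23 were called higher and 5 lower, where 19.8% and 17.5% of all 34507 probe sets were. The groups did not overlap for 16 of the 23, against 48.2% of all probe sets.

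**Figure D1:**
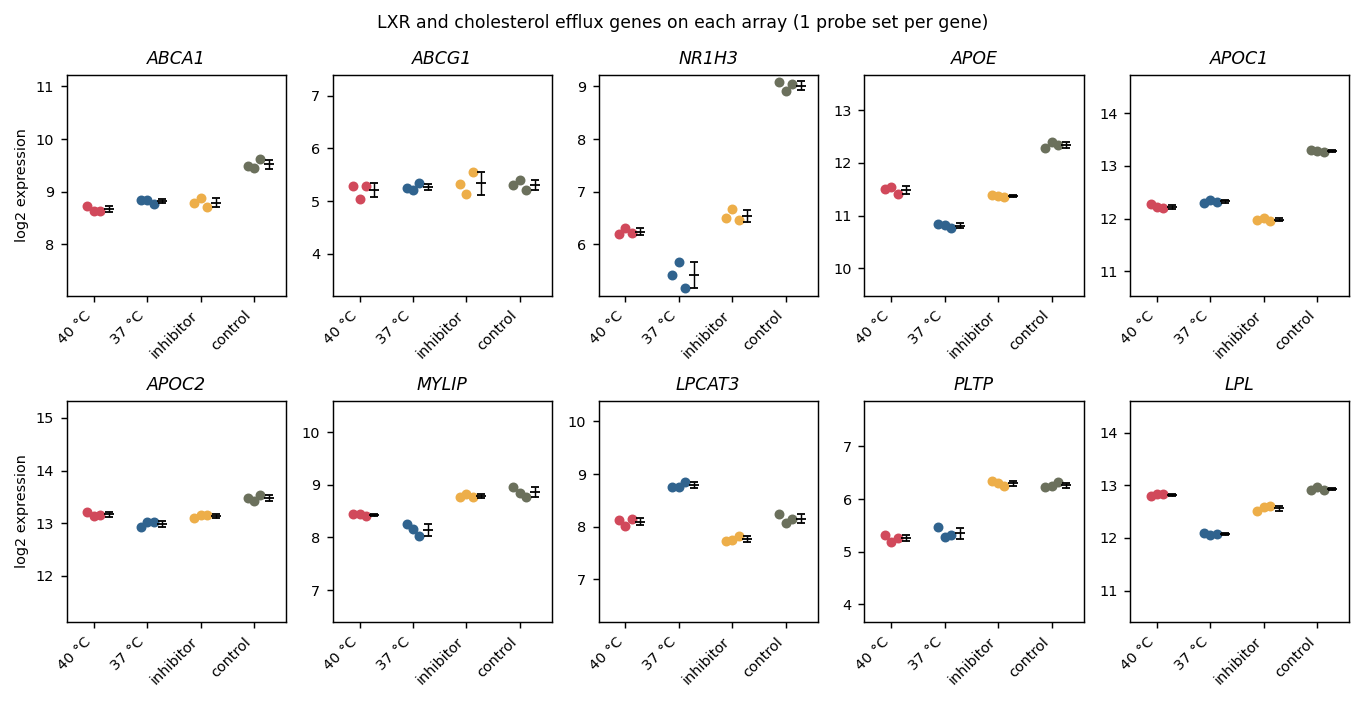
Log2 expression (vertical axes, all of the same span) of the 10 genes on each of the 12 arrays, with 1 probe set per gene. Points are arrays, and the black marks give the mean and SD of 3 arrays. The control arrays of NR1H3, at 8.91 to 9.08, stand above all other groups, and LPL and APOE are higher at 40 °C than at 37 °C on every array.

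NR1H3 had log2 values of 6.19, 6.31 and 6.21 at 40 °C, against 5.41, 5.66 and 5.17 at 37 °C. Every 40 °C array was above every 37 °C array, and the 37 °C arrays were the more spread. The difference was 0.82 (SE 0.11), or 1.77-fold higher at 40 °C (limma, adjusted p = 0.00091). Only 128 of 13909 genes had a larger increase. The poly-A spikes, bacterial RNAs added before labelling, averaged 7.77 ± 0.04 at 40 °C and 7.68 ± 0.04 at 37 °C (log2, SD, n = 3 each). With their level in the fit the NR1H3 difference was 0.51 and not called (adjusted p = 0.0617), and 5 of the 23 probe sets were called. Over all probe sets 2240 were then called higher and 3110 lower, against 6823 and 6039 without it. Spike levels of the groups only just met, at 7.73 to 7.795 at 40 °C and 7.656 to 7.73 at 37 °C. Group and spike level are therefore hard to tell apart in this fit. The part of the spike level in these differences was not tested. NR1H3 overlaps the lysosomal phosphatase gene ACP2 in the annotation, and ACP2 differed by −0.02 (SE 0.06) and was not called.

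The efflux pump ABCA1 was measured above the testing signal by 2 probe sets. Its representative probe set read 8.73, 8.64 and 8.63 at 40 °C, against 8.85, 8.85 and 8.77 at 37 °C. The groups were close but did not overlap. The difference of −0.16 (SE 0.05) was called lower at 1.11-fold (limma, adjusted p = 0.0492). This call was lost without replicate 1, 2 or 3 at 37 °C and without replicate 2 or 3 at 40 °C, with adjusted p from 0.0569 to 0.143. A block for the replicate number removed it too (adjusted p = 0.0683). The other ABCA1 probe set differed by −0.01 (SE 0.06) and was not called. ABCG1 was faint, with 4 of its 5 probe sets below the testing signal, and the remaining one differed by −0.06 (95% confidence interval −0.24 to 0.11).

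Among the apolipoproteins, APOE read 11.51, 11.54 and 11.41 at 40 °C, against 10.84, 10.83 and 10.76 at 37 °C. The groups stood far apart relative to their spread, and APOE was 1.6-fold higher (log2 difference 0.68, SE 0.05; limma, adjusted p = 8.38e-05). APOC2 read 13.22, 13.14 and 13.15 at 40 °C, against 12.92, 13.03 and 13.02 at 37 °C. This smaller increase of 0.18 (SE 0.05) passed with an adjusted p of 0.0306 in limma. The APOC2 call was lost with the replicate block (adjusted p = 0.0717), without replicate 1 or 3 at 37 °C and without any 1 of the 40 °C arrays (0.0522 to 0.112). APOC1, whose product inhibits lipoprotein clearance, differed by −0.10 (SE 0.05) in its representative probe set, and none of its 5 probe sets was called. With the replicate block, however, another APOC1 probe set was called lower (−0.28, adjusted p = 0.0414). Trend and robust eBayes called the representative APOC1 probe set lower (adjusted p = 0.00915) and also a further one (−0.12, 0.00763). In both of these the groups did not overlap. APOE and APOC2 were each read by a single probe set of the x_at type, whose probes may also bind other transcripts, and APOC1 has a near-identical pseudogene copy, so these 3 are uncertain as to which transcript was read.

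LPL rose in all 3 of its probe sets. The representative one read 12.80, 12.83 and 12.83 at 40 °C, against 12.09, 12.05 and 12.07 at 37 °C, and was 1.68-fold higher (log2 difference 0.75, SE 0.05). The others gave 2.05-fold and 1.86-fold (limma, adjusted p = 2.42e-05, 9.89e-05 and 1.5e-05 for the 3). MYLIP also rose in all 3 probe sets, by 1.21-fold in the representative one, which read 8.44, 8.44 and 8.40 at 40 °C, against 8.25, 8.16 and 8.03 at 37 °C. The other MYLIP probe sets gave 1.21-fold and 1.38-fold (limma, adjusted p = 0.01 to 0.015).

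LPCAT3 fell in 4 of 5 probe sets. The representative one read 8.13, 8.02 and 8.14 at 40 °C, against 8.75, 8.76 and 8.85 at 37 °C, a gap much wider than either group's spread. It was 1.61-fold lower (log2 difference −0.69, SE 0.06; limma, adjusted p = 8.64e-05), and the other called probe sets were lower by 1.25-fold to 1.34-fold. The smallest of these calls, at 1.25-fold, was lost with the replicate block (adjusted p = 0.0676), and without replicate 1, 2 or 3 at 37 °C or replicate 1 or 3 at 40 °C (0.0523 to 0.111). The fifth differed by −0.02 (SE 0.08). LPCAT3 overlaps the ribosome assembly gene EMG1, which differed by 0.04 (SE 0.04). PLTP differed by −0.09 (95% confidence interval −0.24 to 0.06) and was not called.

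**Figure D2:**
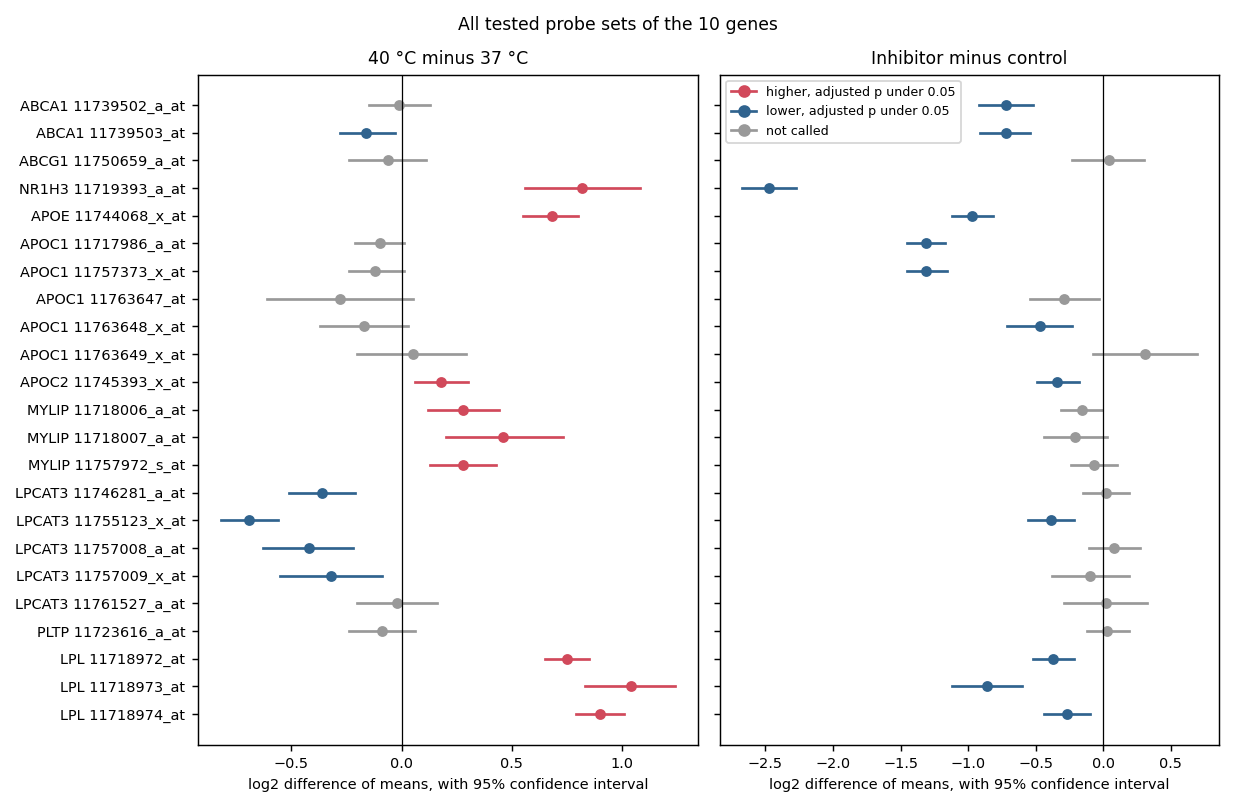
Log2 difference of group means (points) with 95% confidence intervals (lines) for the 23 tested probe sets of the 10 genes, at 40 °C minus 37 °C (left) and thermomiR inhibitor minus control (right). Red and blue mark called higher and lower. The 3 LPL probe sets are higher on the left and lower on the right, and no probe set is called higher on the right.

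The second comparison set cells with the thermomiR inhibitor against control cells. With the inhibitor, LXR alpha and most of the cholesterol and apolipoprotein genes fell together, and none of the 10 genes rose. In all, 7 genes were called lower, NR1H3, APOC1, APOE, ABCA1, LPCAT3, LPL and APOC2, and 3 were not called, MYLIP, PLTP and ABCG1. Over all genes tested, 18.8% were called lower and 24.2% higher. The median log2 difference was −0.38 over the 10 genes, against 0.09 over all genes. By probe set, 12 of 23 were called lower and 0 higher, where 21.8% and 21.3% of all probe sets were. The groups did not overlap for 14 of the 23, against 53.3% of all.

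The inhibitor arrays also differed from the controls in the poly-A spikes, which averaged 5.83 ± 0.27 with the inhibitor and 7.07 ± 0.35 in controls (log2, SD, n = 3 each). When the mean spike signal was added to the fit, 3 of the 23 probe sets were called, all lower: NR1H3 and 2 of APOC1. Over all probe sets 63 were then called higher and 227 lower, against 7355 and 7512 without it. Spike levels did not overlap between the groups, at 5.513 to 5.998 with the inhibitor and 6.813 to 7.47 in controls. Group and spike level can therefore hardly be told apart in this fit, and a lost call does not show which of them a difference follows. Markers of macrophages moved as well: 5 of 10 were lower and 1 higher, where 18.8% and 24.2% of all genes were. Their mean log2 level was 8.68 to 8.78 on the inhibitor arrays and 9.32 to 9.35 on the controls. LYZ, which encodes lysozyme, was 5.07-fold lower, while CSF1R, the receptor of the macrophage growth factor, was 1.21-fold higher. The part of the spike level and of the marker change in the results below was not tested.

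NR1H3 read 6.50, 6.67 and 6.46 with the inhibitor, against 9.08, 8.91 and 9.05 in controls. All control arrays lay far above all inhibitor arrays. The difference was −2.47 (SE 0.08), 5.54-fold lower with the inhibitor (limma, adjusted p = 3.77e-06), and only 15 of 13909 genes had a larger decrease. Across the 17 alternatives run, the difference stayed between −2.54 and −2.43 and was called in each. The overlapping ACP2 was lower by less, at −0.38 (SE 0.11).

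ABCA1 was lower in both tested probe sets. The representative one read 8.79, 8.88 and 8.71 with the inhibitor, against 9.48, 9.45 and 9.62 in controls, and the other 5.28, 5.45 and 5.25, against 6.08, 5.93 and 6.12 in controls. In neither did the groups overlap, and the probe sets gave nearly equal decreases of 1.65-fold and 1.64-fold (limma, adjusted p = 0.000353 and 0.000521). ABCG1 differed by 0.04 (95% confidence interval −0.23 to 0.30) and was not called. With no signal filter, a faint ABCG1 probe set was called higher, at 3.62 ± 0.21 with the inhibitor and 3.19 ± 0.07 in controls (SD, n = 3 each).

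The apolipoprotein transcripts fell by different amounts. APOC1 read 11.97, 12.01 and 11.96 with the inhibitor, against 13.31, 13.29 and 13.27 in controls. The arrays of each group lay within 0.05 of each other and the groups more than 1 log2 unit apart, a 2.48-fold decrease (log2 difference −1.31, SE 0.06; limma, adjusted p = 1.18e-05). Other APOC1 probe sets gave 2.47-fold and 1.39-fold decreases. The remaining ones, at −0.29 (SE 0.11) and at 0.31 (SE 0.17), did not pass, but without replicate 2 of the controls the first of them was called (−0.39, adjusted p = 0.0215). APOE read 11.40, 11.37 and 11.36 with the inhibitor, against 12.29, 12.40 and 12.34 in controls. It was 1.95-fold lower (limma, adjusted p = 4.48e-05). APOC2 read 13.10, 13.16 and 13.16 with the inhibitor, against 13.47, 13.43 and 13.53 in controls. The groups did not overlap, and the decrease was 1.26-fold (limma, adjusted p = 0.00454).

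LPL was lower in all 3 probe sets, but by unequal amounts. Its representative probe set read 12.51, 12.58 and 12.60 with the inhibitor, against 12.92, 12.96 and 12.91 in controls, a 1.29-fold decrease (limma, adjusted p = 0.00285). The others gave 1.82-fold (0.000773) and 1.21-fold (0.0192) by the same test. The last of these calls was lost with the replicate block (adjusted p = 0.0732), without replicate 2 or 3 of the controls and without replicate 3 of the inhibitor arrays (0.0509 to 0.0811). LPCAT3 probe sets disagreed. The representative one read 7.73, 7.74 and 7.83 with the inhibitor, against 8.24, 8.07 and 8.15 in controls, and was 1.31-fold lower (limma, adjusted p = 0.00416). The other 4 differed by −0.10 to 0.08 and were not called, and neither was the mean of the 5 (−0.07, adjusted p = 0.404). The overlapping EMG1 was higher by 0.33 (SE 0.06).

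MYLIP differed by −0.07 (SE 0.07) in its representative probe set, with a 95% confidence interval of −0.24 to 0.10, and its other probe sets by −0.16 and −0.21. None was called, but 2 of the 3 were with array weights (adjusted p = 0.00891 and 0.00611). Under that setting many more probe sets of the whole array were called higher, as given in the last section. The MYLIP probe set at −0.16 was also called with a filter at the 50th percentile (limma, adjusted p = 0.0499). PLTP read 6.34, 6.30 and 6.25 with the inhibitor, against 6.23, 6.24 and 6.32 in controls. Its groups overlapped, and the interval of the difference was −0.12 to 0.19.

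Set side by side, NR1H3, APOE, APOC2 and LPL were called higher at 40 °C and lower with the inhibitor, which are 4 of the 10 genes. Over all 13909 genes, 4.51% had both calls. The 10 genes were chosen with earlier results of these data known, so setting these shares side by side does not test the set. LPCAT3 and ABCA1 were called lower in both comparisons by their representative probe sets. With the inhibitor, however, only 1 of the 5 LPCAT3 probe sets was called. At 40 °C the ABCA1 call was lost in 11 of 17 alternatives and the APOC2 call in 9 of 17. In the main fit APOC1 was called with the inhibitor but not at 40 °C, and MYLIP at 40 °C but not with the inhibitor, although some alternatives called each of them in both. Whether the 2 effects of such a gene differ was not tested. The comparisons share no arrays, but their cells differ in handling.

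**Figure D3:**
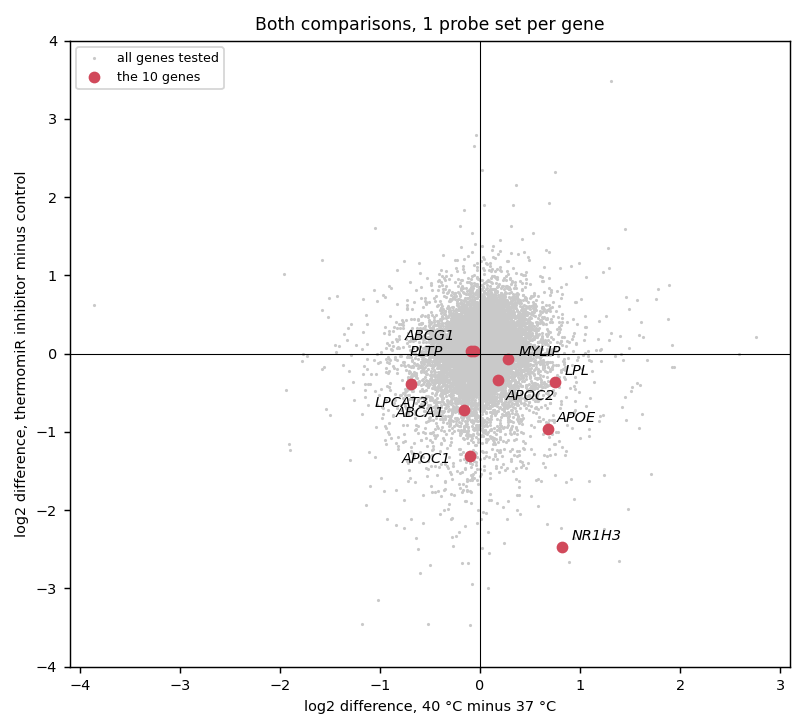
Log2 difference at 40 °C minus 37 °C (horizontal axis) against thermomiR inhibitor minus control (vertical axis) for 13909 genes (grey) and the 10 genes (red), with 1 probe set each. NR1H3, at 0.82 and −2.47, lies at the lower right edge of the cloud, and none of the 10 genes lies above 0.04 on the vertical axis.

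In the order of levels over the 4 groups, the controls of the inhibitor experiment were highest for 7 of the 10 genes by their representative probe sets (ABCA1, NR1H3, APOE, APOC1, APOC2, MYLIP and LPL), although another MYLIP probe set was highest at 40 °C (7.79). NR1H3 averaged 6.54 ± 0.11 with the inhibitor and 9.01 ± 0.09 in controls, and 6.24 ± 0.06 at 40 °C and 5.41 ± 0.25 at 37 °C (SD, n = 3 each). From the top the order was control, inhibitor, 40 °C and 37 °C, and no neighbouring groups overlapped. The controls thus stood 2.78 log2 units above the 40 °C cells, and the inhibitor cells 0.31 above them. APOE averaged 11.38 ± 0.02 with the inhibitor and 12.34 ± 0.06 in controls, and 11.49 ± 0.07 at 40 °C and 10.81 ± 0.04 at 37 °C, so that the 40 °C cells lay between the controls and the inhibitor cells, again without overlap. APOC1 averaged 11.98 ± 0.03 with the inhibitor and 13.29 ± 0.02 in controls, and 12.23 ± 0.04 at 40 °C and 12.33 ± 0.03 at 37 °C. This put the inhibitor cells lowest in the representative probe set, as in another APOC1 probe set (11.96). In the remaining APOC1 probe sets the inhibitor cells, at 6.62, 6.62 and 5.98, lay above both temperature groups, which averaged 5.18 to 6.18. ABCA1 averaged 8.79 ± 0.09 with the inhibitor and 9.52 ± 0.09 in controls, and 8.67 ± 0.06 at 40 °C and 8.82 ± 0.05 at 37 °C. Below its controls, neighbouring groups overlapped in the order 37 °C, inhibitor and 40 °C. MYLIP inhibitor cells, at 8.79 ± 0.04, overlapped with the controls at 8.86 ± 0.10. PLTP separated the experiments instead, with 6.30 ± 0.05 with the inhibitor and 6.26 ± 0.05 in controls, against 5.25 ± 0.06 at 40 °C and 5.35 ± 0.10 at 37 °C. LPCAT3 was highest at 37 °C in its representative probe set. Neighbouring groups of ABCG1 overlapped throughout in its tested probe set. Per the labels' protocols the experiments differ in handling, which cannot be told apart from the groups, so levels across them are given without a test.

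The genes most like the members over the 12 arrays were found by the root mean square difference of profiles, each centred on its own mean, among 13908 other genes. Nearest to NR1H3 were ASNS (0.16), CTH (0.20) and SEMA3C (0.23), with NR1H3 itself varying by 1.35 about its mean. ASNS makes asparagine and CTH makes cysteine. Nearest to APOE were MARS1 (0.11), a methionyl-tRNA synthetase, MSMO1 (0.12), an enzyme of cholesterol synthesis, and DAB2 (0.13), an endocytic adaptor, where APOE varied by 0.55. Nearest to LPL were PLPBP (0.08), SDC1 (0.09) and NEU1 (0.10), and nearest to ABCA1 were DNM1 (0.06), PDHX (0.06) and WWP1 (0.07). ABCG1 varied by 0.12 only, so its nearest genes, KCNIP3, DEFB132 and PF4V1 (0.07 each), are other transcripts that hardly varied.

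Around the 10 genes, the receptor's partners moved in both directions. Of 6 tested partners and related receptors, 3 rose and 3 fell at 40 °C, and with the inhibitor none rose and 2 fell, where 20.5% of all genes rose and 16.9% fell at 40 °C, and 24.2% rose and 18.8% fell with the inhibitor. RXRA and RXRB, which dimerise with LXR, were 1.11-fold and 1.19-fold higher at 40 °C and were not called with the inhibitor (0.15, SE 0.06, and 0.06, SE 0.06). PPARG, a fatty acid receptor that can induce NR1H3, was 1.73-fold higher at 40 °C and 2.18-fold lower with the inhibitor. Its relative PPARD was 1.15-fold and 1.91-fold lower. The coactivator gene NCOA1 and the corepressor gene NRIP1 were both 1.27-fold lower at 40 °C. NR1H2 was not analysed here.

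Among enzymes of oxysterol metabolism, CYP27A1, which makes a hydroxycholesterol that LXR binds, was 1.23-fold higher at 40 °C and differed by −0.02 (SE 0.10) with the inhibitor. CYP7B1, which breaks oxysterols down, was 1.32-fold higher at 40 °C and 1.9-fold higher with the inhibitor. These were the calls among 4 tested genes. The call count at 40 °C was 1 without replicate 1 of the 40 °C arrays. CH25H, which makes another such oxysterol, was below the testing signal in all groups, with means of 2.90 to 3.26.

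Genes listed as other LXR targets fell with the inhibitor in 7 of 10 tested and rose in none, with a median log2 difference of −0.44. Over all genes tested, 18.8% fell and 24.2% rose, with a median of 0.09. Counted among the 7 is TTC39B, listed here although it acts as a regulator of LXR breakdown. It was 5.6-fold lower (5.92 ± 0.25 with the inhibitor and 8.41 ± 0.04 in controls). SCD, a fatty acid desaturase, was 2.12-fold, the phosphodiesterase SMPDL3A 2.1-fold, the phagocytic receptor MERTK 1.95-fold, ELOVL5 1.39-fold and the lipid synthesis factor SREBF1 1.33-fold lower. At 40 °C 3 of the 10 rose and 1 fell, with FADS1 1.38-fold, ELOVL5 1.25-fold and MERTK 1.15-fold higher and SREBF1 1.64-fold lower. With the spike covariate, 1 of the 10 was called with the inhibitor.

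Genes of cholesterol uptake and storage went both ways. At 40 °C 6 of 13 rose and 2 fell, against 20.5% and 16.9% of all genes: NPC1, which exports cholesterol from lysosomes, was 1.64-fold, the scavenger receptor CD36 1.34-fold and VLDLR, a receptor that MYLIP degrades, 1.28-fold higher. The scavenger receptor MSR1 was 1.40-fold and the sterol carrier STARD4 1.61-fold lower. With the inhibitor 4 rose and 4 fell, against 24.2% and 18.8% of all genes, and 5 were called without replicate 3 of the controls or with the replicate block. CD36 was 1.77-fold higher, whereas STARD4 was 4.33-fold, LIPA, the lysosomal acid lipase, 1.48-fold and VLDLR 1.45-fold lower. SOAT1, which esterifies cholesterol for storage, differed by 0.07 (SE 0.05) at 40 °C and −0.15 (SE 0.07) with the inhibitor and was not called.

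Targets of the PPAR fatty acid receptors were called in the other direction with the inhibitor, where all 6 tested rose, against 24.2% of all genes, with a median log2 difference of 1.72. FABP4, a fatty acid carrier, was 11.2-fold, PDK4 6.92-fold, the lipid droplet protein PLIN2 3.72-fold and CPT1A, which takes fatty acids into mitochondria, 2.91-fold higher. PDK4 passed the testing signal of 4.48 only through the inhibitor arrays. It averaged 6.91 there and 4.12 in controls, and 3.68 at 40 °C and 3.72 at 37 °C. Its place in this count and median therefore depends on the group where it is high. At 40 °C FABP4 was 2.48-fold and PLIN2 1.26-fold higher, and the other 4 were not called, with PDK4 below the testing signal in both groups. With the spike covariate, 3 of the 6 were called with the inhibitor. Proteins that act on LPL or on lipolysis were called higher in 4 of 6 with the inhibitor, against the same 24.2%, among them the LPL inhibitor ANGPTL4 (1.32-fold) and LMF1, which matures the lipase (1.24-fold). Signals of these 4 genes were low, with means over the 12 arrays of 4.91 to 6.61, where the testing signal was 4.48. TTR (5.42) and ADIPOQ (6.28), markers of other cell types that were also called higher, lay in the same range. The number called was 1 with the replicate block, and 1 without replicate 1, 2 or 3 of the controls or replicate 3 of the inhibitor arrays, and 0 without replicate 1 of the inhibitor arrays. None of the 6 was called at 40 °C, although 1 was without replicate 3 at 37 °C.

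**Figure D4:**
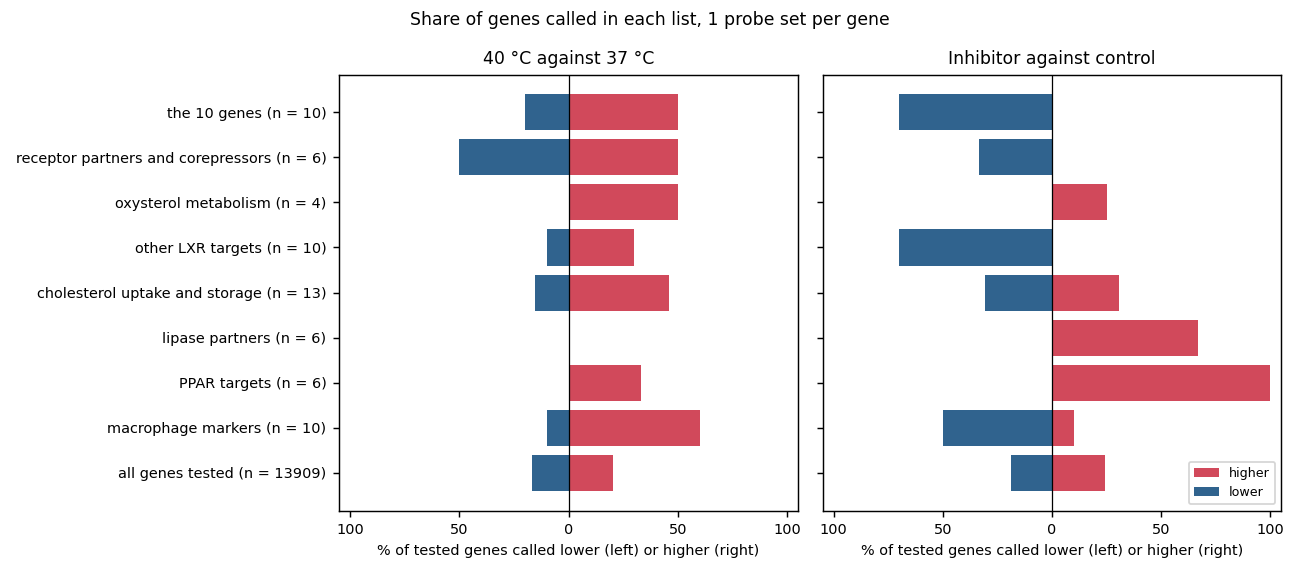
Share of tested genes called lower (blue, left) or higher (red, right), in percent, at 40 °C against 37 °C and with the thermomiR inhibitor against control, for the 10 genes, 7 lists and all genes tested. With the inhibitor, LXR target lists lie to the left and the 6 PPAR targets to the right.

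At 40 °C, 6 of the 10 macrophage markers rose and 1 fell, against 20.5% and 16.9% of all genes, with mean log2 levels of 9.34 to 9.44 at 40 °C and 9.16 to 9.17 at 37 °C. CD163 was 1.95-fold and FCGR1A 1.28-fold higher, and LYZ was 1.22-fold lower. Their part in the increases of NR1H3, APOE and LPL was not tested. Markers of other cell types had no calls at 40 °C, although 1 adipocyte gene was called without replicate 3 at 37 °C. With the inhibitor, TTR of the hepatocyte list and ADIPOQ of the adipocyte list were called higher, by 1.26-fold and 1.21-fold. Both calls were lost with the replicate block and without replicate 1 of the controls. That of TTR was also lost without replicate 2 of the controls or replicate 1 of the inhibitor arrays, and that of ADIPOQ without replicate 3 of either group. The tested lymphocyte, erythroid and fibroblast genes, 2 of each, gave no call. The mean log2 level per array was 4.39 to 4.61 with the inhibitor and 4.49 to 4.53 in controls for hepatocyte genes, and 5.53 to 5.87 with the inhibitor and 5.34 to 5.58 in controls for adipocyte genes.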

How the data were processed

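The authors deposited log2 expression values of 49395 probe sets on 12 arrays. That they are log2 was judged from their range. How the authors corrected background, normalized and summarised them, and with which software, is not stated in any label used here. The platform's gene table gives exactly 1 symbol to 44988 probe sets that are not controls, several to 1832 and none to 2473. The 34507 probe sets that are not controls and whose mean over the 12 arrays reached the 30th percentile (log2 4.48) were tested. Each comparison was fitted on its own 6 arrays by limma (version 3.58.1, R version 4.3.3; a two-sided moderated test, no covariates, Benjamini-Hochberg adjustment over all probe sets tested, threshold 0.05). Residual degrees of freedom were 4 and prior ones 3.89 and 3.61. For 3 arrays against 3, an exact permutation test cannot give a p below 0.1, so none was run. A gene is represented by its probe set of 1 symbol with the highest mean. Folds are back-transformed from log2 differences, with SDs over 3 arrays or SEs of the fit as errors. Confidence intervals are at 95%.

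The 10 genes and the lists were chosen with earlier results of these data known. All probe sets of the 10 genes are named; from each other list, up to 4 called genes per comparison by smallest p and a fixed set are named where tested, with the 3 nearest profiles for 5 of the genes. ACP2, EMG1, CSF1R and most markers of other cell types were named after their values were seen, the first 2 because they overlap members. The looser promoter motif was 1 of several forms tried. Alternatives were a joint fit, the replicate block, other filters, 1 probe set or the mean per gene, quantile normalization, centring, trend and robust eBayes, array weights, the poly-A spike level (24 probe sets) as a covariate, and leaving out each array. The procedure was tested on simulated data. Deviations of same-numbered arrays from their group means correlated at −0.54 to 0.21, and mostly below 0. Listed genes with no probe set of their own were not analysed here. Figures were drawn in matplotlib 3.10.9 under Python 3.11.15, from tables made with NumPy 2.4.6 and pandas 2.3.3.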

Additional observations from a re-analysis of the deposited data

How the results depend on the processing

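The number of called probe sets of the 10 genes was 14 at 40 °C against 37 °C and 12 with the inhibitor against control. It was 7 and 7 with 1 probe set per gene and 6 and 6 with the mean per gene, where only 10 and 9 values were tested. With the poly-A spike covariate it was 5 and 3. Leaving out each array gave 11 to 12 at 40 °C and 11 to 12 with the inhibitor. With the replicate number as a block it was 12 and 11, and the calls lost there are given beside the values. The pairing of replicate numbers is not stated: deviations of same-numbered arrays from their group means correlated at −0.08, −0.06 and 0.21 in the temperature experiment and at −0.08, −0.54 and −0.08 in the inhibitor experiment. No called probe set of the 10 genes changed sign under any alternative run, and 11 of 23 in each comparison kept their side of the threshold under all of them. With the spike covariate, the increases of NR1H3 (0.51, adjusted p = 0.0617) and MYLIP (0.22, 0.224) at 40 °C and the decreases of APOE (−0.83, 0.0996) and ABCA1 (−0.70, 0.205) with the inhibitor were not called. The LPL probe set that differed by −0.86 with the inhibitor differed by −0.30 under it. Quantile normalization added a call of APOC1 at 40 °C (−0.13, adjusted p = 0.0476), as did trend and robust eBayes (−0.10, 0.00915). Centring on the median removed the calls of ABCA1 (0.0516) and APOC2 (0.0543) there. The mean of the ABCA1 probe sets was not called at 40 °C (−0.07, adjusted p = 0.213). The cause was not tested. Of the receptor partners, 4 were called with the inhibitor in the joint fit, with quantile normalization or with array weights, against 2. With array weights 13022 probe sets were called higher with the inhibitor, against 7355. Signal limits ABCG1, of whose 5 probe sets 4 were too faint to test.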
